A study of Gallus gallus with 4 samples.

Results

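The flat abundant genes of the chicken neural tube are the transcripts that were plentiful in every library and stayed within a narrow range when MEK1 was made constitutively active. They were chosen by their measured values: a CPM (the count scaled to a library of 1000000 counts) of at least 500 in all 4 libraries, and a highest CPM of at most 1.2 times the lowest. Genes on chromosome 16 and genes spanning 400000 bases or more were left out. The rule kept 193 of the 17108 genes in the count table. In all, 243 genes reached 500 CPM in every library, of which 49 had a wider range and 1, on chromosome 16, was removed by position. The 49 are called the other abundant genes below. Because the rule used the levels in all 4 libraries, the levels and fold changes of the 193 genes are descriptions. Calls and intervals from the fit across all genes are printed for them as values only, and support nothing.

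RNA was sequenced from GFP-expressing cells sorted by FACS from the trunk neural tube of chicken embryos, electroporated in ovo at about stage HH 11 and dissected 18 h later. The MEK1ca group (2 libraries) had received a mix of pCIG-MEK1ca at 1 µg/µl and empty pCIG at 1 µg/µl, and the pCIG group (2 libraries) had received 2 µg/µl of empty pCIG. Both groups therefore carried pCIG and its GFP reporter, and each library came from RNA of pooled embryos, so cells of different types and embryos were read together. The pCIG libraries are labelled as a re-analysis of earlier ones, and the labels name replicates without saying what a replicate number shares. No sequencing batch is given, and one that followed the plasmid cannot be told apart from it.

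MEK1 is the kinase that phosphorylates and activates ERK, the last kinase of a cascade that carries growth factor signals such as FGF into the nucleus. In the caudal neural tube FGF and ERK activity keep cells immature, and ERK is best known for switching on a set of response genes. Most of the messenger RNA in a cell is not of that kind: a small number of genes, many of which serve translation, the cytoskeleton, energy metabolism and RNA handling in vertebrates generally, supply a large part of the pool. The identifiers in the count table are paired with no gene names in the files, and 0 of 17108 matched the reference table of a later assembly. The genes are therefore described by identifier, position, structure and level, without roles, and neither the tissue nor the transfected MEK1 could be checked through named genes.

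The libraries held 63637195 and 76997561 counts in MEK1ca and 77004159 and 79064166 in pCIG. The 193 genes had 31888 to 917379 counts each in a library. With every count taken as independent, counting error alone was 0.109 to 0.511% of a gene's mean count (median 0.404%). CPM are shares of a library, so a flat CPM does not measure RNA per cell, and in such bulk samples fewer cells of a type and less RNA per cell cannot be told apart.

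The flat abundant genes made up 1.48% of the 13024 genes that passed the filter for testing, yet held more than 20% of the gene counts of every library. The genes tested lay only on numbered chromosomes, Z and W, and reads given to no gene in the count table are not in these shares. Their share of counts was 20.7 and 20.9% in the MEK1ca libraries, against 21.04 and 21.6% in the pCIG libraries. The group means were 20.8 ± 0.105% in MEK1ca and 21.3 ± 0.369% in pCIG (SD, n = 2 each), a gap of about the same size as the difference between the pCIG replicates. The other abundant genes held 5.23 and 5.10% in MEK1ca, against 5.21 and 5.37% in pCIG. Within the 193, levels were skewed. A mean of 500 to under 1000 CPM was found for 130 genes, 1000 to under 2000 for 48, 2000 to under 5000 for 13 and more for 2. The median of the gene means was 827 CPM.

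The most abundant transcript of the whole table belonged to this set. ENSGALG00000015917, a gene of 7 exons on the plus strand of chromosome 3 at 80913076 to 80916878 (galGal4), had 11497 and 11225 CPM in MEK1ca, against 10891 and 11603 CPM in pCIG. It ranked highest in each of the 4 libraries, and the highest and the lowest value were both pCIG libraries. ENSGALG00000009621, with 5 exons on chromosome 14 (minus strand, 4169150 to 4172343), had 5034 and 5393 CPM in MEK1ca, against 4727 and 5190 CPM in pCIG. It ranked just behind in every library, with overlapping groups. ENSGALG00000005587, with 22 exons on chromosome 5 at 8194081 to 8205315, had 3997 and 4023 CPM in MEK1ca, against 4001 and 4366 CPM in pCIG. There pCIG replicate 2 stood above the 3 other libraries, which lay close to each other.

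**Figure D1:**
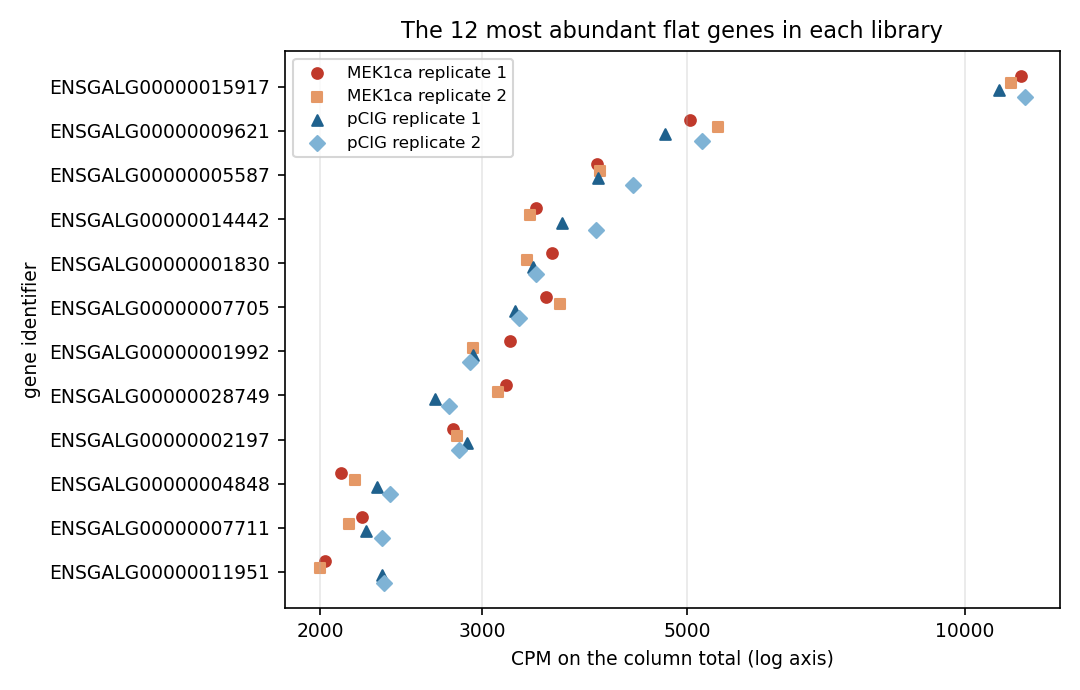
CPM of the 12 most abundant flat genes in the 2 MEK1ca and 2 pCIG libraries (one point per library, log axis). ENSGALG00000015917 lies apart at 10891 to 11603 CPM, and for each gene the 4 points lie close together compared with the distance from the top gene to the lowest, ENSGALG00000011951, at 2001 to 2345 CPM.

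The 12 most abundant of these genes together held 4.66 and 4.62% of counts in MEK1ca, against 4.53 and 4.74% in pCIG. Not all of them were level between groups. ENSGALG00000014442, on chromosome 1 at 76434647 to 76437498, had 3430 and 3376 CPM in MEK1ca, against 3662 and 3979 CPM in pCIG, so that both MEK1ca libraries were lower. ENSGALG00000007705, on chromosome 9 (minus strand, 14750404 to 14758732), had 3512 and 3636 CPM in MEK1ca, against 3254 and 3286 CPM in pCIG, and both MEK1ca libraries were higher. ENSGALG00000002197, on chromosome 13 at 2641231 to 2651587, was nearly level, with 2784 and 2815 CPM in MEK1ca, against 2886 and 2831 CPM in pCIG.

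Compared per kilobase of summed exon length (RPKM), a scale on which levels of different genes can be set side by side, the order changed. ENSGALG00000015917 was still highest, at 6827 and 6666 RPKM in MEK1ca, against 6467 and 6890 RPKM in pCIG. ENSGALG00000002197, whose exons sum to 889 bases, came next at 3132 and 3167 RPKM in MEK1ca, against 3246 and 3184 RPKM in pCIG. Its values lay beside those of ENSGALG00000009621, at 2987 and 3201 RPKM in MEK1ca, against 2806 and 3080 RPKM in pCIG, so their order is not settled by these libraries. A shorter gene, ENSGALG00000028600, entered the leading 6 although it was not among the 12 highest by CPM. It has 4 exons of 622 bases in all within a span of 917 bases on chromosome 22 at 4060940 to 4061857, the smallest span of the set. Its level was 2439 and 2585 RPKM in MEK1ca, against 2671 and 2741 RPKM in pCIG. Over the 193 genes the median was 469 RPKM, from 73.7 to 6713, whereas over all genes tested it was 11.4 RPKM.

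The width of the window matters for what flat means here. The ratio of highest to lowest CPM had a median of 1.102 (quartiles 1.07 and 1.13). It was at most 1.05 for 16 genes, up to 1.1 for another 76, up to 1.15 for 73 and up to 1.2 for 28. The flattest gene, ENSGALG00000001580 on chromosome 28 at 1712018 to 1720854, had 1801 and 1808 CPM in MEK1ca, against 1793 and 1800 CPM in pCIG, a ratio of 1.0085. ENSGALG00000011229, on chromosome 8 at 27570552 to 27583269, had 1052 and 1044 CPM in MEK1ca, against 1035 and 1054 CPM in pCIG. Groups overlapped in ENSGALG00000011229, while in ENSGALG00000001580 both MEK1ca libraries were slightly higher.

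**Figure D2:**
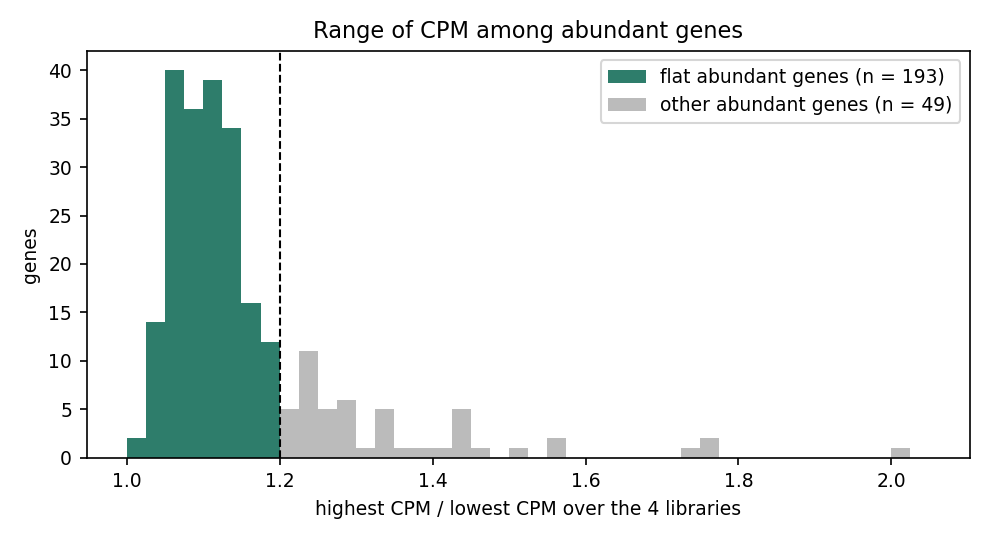
Ratio of the highest to the lowest CPM over the 4 libraries for the 193 flat abundant genes and the 49 other abundant genes (stacked counts of genes; the dashed line is the limit of 1.2). Most flat genes lie between 1.05 and 1.15, and the other abundant genes reach 2.0.

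At the edges the rule cut through neighbouring values. The flat gene closest to the ratio limit, ENSGALG00000003882 on chromosome 27, had 649 and 671 CPM in MEK1ca, against 724 and 778 CPM in pCIG, a ratio of 1.1983. The nearest abundant gene outside, on chromosome 3 at 18167012 to 18205003, had 720 and 720 CPM in MEK1ca, against 661 and 594 CPM in pCIG, a ratio of 1.2117. At the level limit, ENSGALG00000007220 on chromosome 5 was kept with 501 CPM in its lowest library, MEK1ca replicate 1. A gene on chromosome 6 at 25533210 to 25555268 was left out with 498.7 CPM in that library although its ratio was within the limit.

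Genes of lower level were less often within 1.2-fold. Of genes at 1 to 5 CPM in their lowest library 4.81% were, and the share was 43.0% at 20 to 50 CPM, 68.8% at 100 to 200 CPM and 74.7% at 200 to 500 CPM. It was 78.7% of 169 genes at 500 to 1000 CPM and 82.4% of 74 genes above that. Replicates also differed less at 500 to 1000 CPM than at low levels. The median ratio between replicates was 1.21 in MEK1ca and 1.21 in pCIG at 1 to 5 CPM, and 1.035 in MEK1ca and 1.032 in pCIG at 500 to 1000 CPM. Above 1000 CPM it was 1.044 in MEK1ca and 1.034 in pCIG, no lower than in the bin before. The share of genes within 1.2-fold was higher in each successive bin, without a break at 500 CPM.

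**Figure D3:**
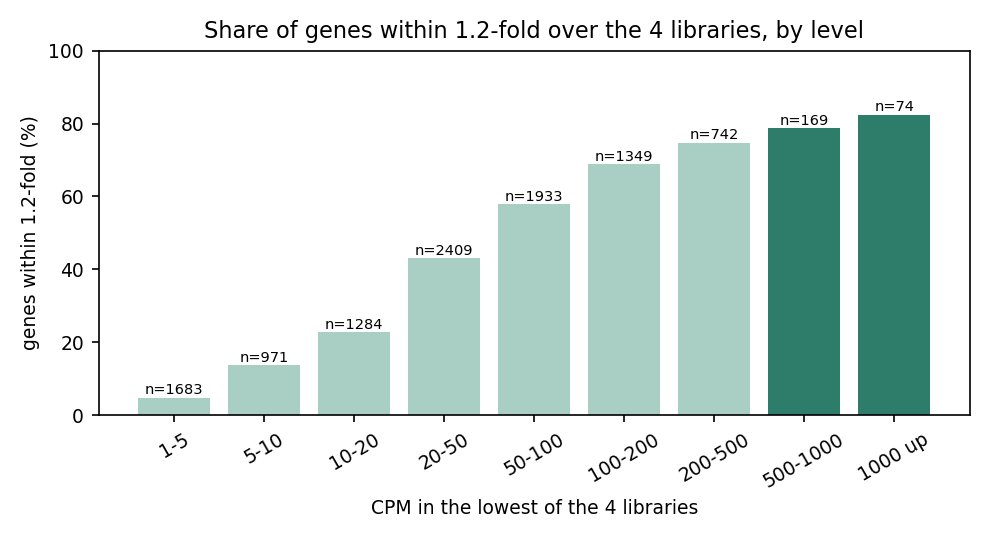
Percentage of genes whose highest CPM was at most 1.2 times the lowest over the 4 libraries, by CPM in the lowest library (n is the number of genes in each bin; the darker bars hold the abundant genes). The share climbs with each bin, to 82.4% in the last.

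Within the window the 2 groups were often set apart. The label of these genes as unmoved holds only up to 1.2-fold: both MEK1ca libraries lay below both pCIG libraries for 106 genes and above them for 36, and the groups overlapped for 51. Groups thus did not overlap for 142 of 193 genes, against 59.5% of all genes tested, with 32.7% below and 26.9% above over all genes. The rule used these same values, so nothing is read from that contrast. The balance also followed the scaling. On library sizes adjusted by TMM, a method that assumes most genes do not change, 74 genes lay below, 41 above and 78 overlapped. Over all genes tested 29.5% lay below, 29.4% above and 41.2% overlapped on those sizes. Groups then did not overlap for 59.6% of the 193 genes, against 58.8% of all genes tested. The median difference between group means, in either direction, was 1.059-fold, while the larger of the 2 replicate ratios had a median of 1.046. The group difference exceeded both replicate ratios in 118 genes and did not in 75, and among the other abundant genes it did in 38 of 49. That share was not computed over all genes tested, and nothing is read from these counts.

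The extremes of each direction were picked from the same values that chose the set, and their levels and intervals are given as descriptions. ENSGALG00000028749, with 5 exons on the plus strand of chromosome 18 at 9470423 to 9472834, had 3182 and 3115 CPM in MEK1ca, against 2666 and 2759 CPM in pCIG. Its log2 fold change in the edgeR fit, which works on TMM-scaled counts, was 0.24 (95% interval 0.12 to 0.36). ENSGALG00000002745, with 25 exons on chromosome 11 at 1793608 to 1828218, had 602 and 599 CPM in MEK1ca, against 518 and 507 CPM in pCIG, a log2 fold change of 0.25 (0.13 to 0.37). In the other direction, ENSGALG00000011951 on chromosome 2 at 44935746 to 44940493 had 2027 and 2001 CPM in MEK1ca, against 2336 and 2345 CPM in pCIG, a log2 fold change of -0.19 (-0.31 to -0.08). ENSGALG00000028749 and ENSGALG00000011951 each overlap another annotated gene on the same strand.

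The edgeR fit called 4 of the 193 genes at an adjusted p under 0.05, against 13.9% of all genes tested. These were the 3 just named and a gene on chromosome 10 at 8418112 to 8446458, with 774 and 744 CPM in MEK1ca, against 688 and 658 CPM in pCIG. Of them 3 were higher in MEK1ca (8.18% of all genes tested) and 1 was lower (5.75% of all genes tested). The rule had capped the change, so the low count follows from the choice of genes. DESeq2 called 3 of the 193, against 2328 of the 14783 genes with any count, and limma-voom called 4, against 1622 of 13024. The gene on chromosome 10 lost its call in both, so the 4 of limma-voom were not the 4 of edgeR. Most of the edgeR calls were lost in fits without 1 library. A group then held 1 library, so only fold changes are given. Across those fits the log2 fold change was 0.20 to 0.27 for ENSGALG00000028749 and 0.24 to 0.27 for ENSGALG00000002745. It was -0.21 to -0.17 for ENSGALG00000011951 and 0.16 to 0.24 for the gene on chromosome 10. With all 4 libraries the unadjusted edgeR p was under 0.05 for 30 of the 193 genes (15.5%), against 28.4% of all genes tested. Among the other abundant genes, which a ratio over 1.2 in the same libraries had selected, 30 of 49 were called, 14 higher and 16 lower, so neither count is evidence on its set.

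As a group the flat abundant genes leaned slightly towards lower levels in MEK1ca. Their median log2 fold change was -0.042, where the median over all genes tested was -0.0049. Of the 193 genes 129 lay below 0 and 64 above, against 50.6 and 49.3% of all genes tested. The lean was not particular to them. Among the other abundant genes, chosen by a wider range in the same libraries, the median was -0.188. Of those 49 genes, 30 lay below 0 and 19 above. The lean of the 193 genes rested on the pCIG libraries. Relative to the mean of the 4 libraries, the median of the 193 genes on the log2 scale was -0.011 and -0.013 in MEK1ca, against -0.0079 and 0.044 in pCIG. Replicate 1 of pCIG was thus close to the MEK1ca libraries and replicate 2 stood above them. The median log2 fold change was -0.0095 without pCIG replicate 2 and -0.077 without pCIG replicate 1. The highest of the 4 CPM values was in pCIG replicate 2 for 107 of the 193 genes, and the lowest was in MEK1ca replicate 1 for 86.

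Summed exon length, which the rule did not use, differed in its median between the 2 directions, with wide overlap. Genes with both MEK1ca libraries above had a median exon length of 3260 bases and 14.5 exons, and those with both below had 1305 bases and 7 exons. Genes with overlapping groups lay between, at 2705 bases and 12 exons. Of the 45 genes with under 1000 bases of exon, 40 had both MEK1ca libraries below and 0 above on column totals, and 29 below and 1 above on TMM-adjusted sizes. Of all 2043 genes tested in that length class, 735 were below and 429 above on column totals, a weaker imbalance, and 651 below and 458 above on TMM-adjusted sizes. Sets closer in level leaned further that way than all genes. Of the 124 genes in that class at 100 to under 500 CPM in the lowest library, 65 were below and 14 above on column totals. Of the 7 other abundant genes in that class, 5 were below and 1 above. Of the 42 genes with 4000 bases or more, 15 were below and 14 above on column totals, and 11 below and 16 above on TMM-adjusted sizes. Of all 2711 genes tested in that class, 740 were below and 897 above on column totals. The balance of the long genes therefore turned with the scaling, while that of the short genes did not. Across the 193 genes Spearman's rho between exon length and log2 fold change was 0.39, and Pearson's r with log2 length was 0.40. All points share the same 4 libraries, and the values are given as descriptions.

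**Figure D4:**
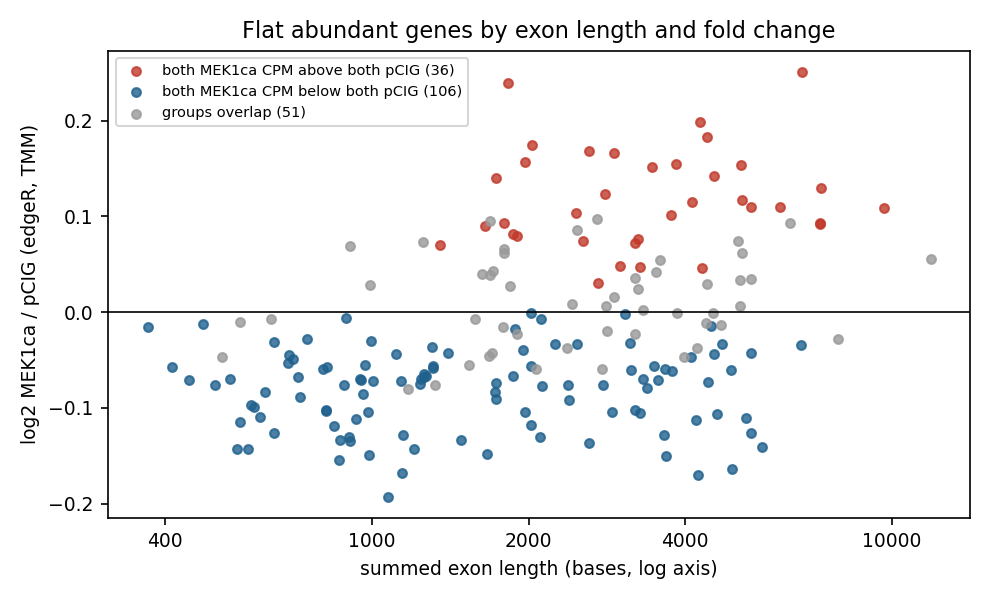
Summed exon length (log axis) against the log2 MEK1ca to pCIG fold change of the 193 flat abundant genes, coloured by whether both MEK1ca CPM lay above (36 genes) or below (106 genes) both pCIG CPM, or overlapped (51 genes). Nearly all genes under 1000 bases lie below 0, and longer genes lie on both sides.

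The gradient was visible library by library. In genes under 1000 bases the median log2 deviation from the 4-library mean was -0.021 and -0.045 in MEK1ca, against 0.012 and 0.066 in pCIG. In genes of 4000 bases or more it was 0.016 and 0.0032 in MEK1ca, against -0.020 and -0.00072 in pCIG. Short minus long genes gave -0.037 and -0.048 in MEK1ca, against 0.032 and 0.067 in pCIG, so that both MEK1ca libraries lay on one side. In the edgeR fit the median log2 fold change was -0.071 for short and 0.018 for long genes, and with library totals alone the long genes were at -0.0067. The difference was -0.088, and it was -0.097 to -0.107 when any 1 library was left out. The same order was found outside the set. Among the other abundant genes, chosen by a wider range in the same libraries, the median was -0.229 for 7 short and 0.213 for 13 long genes, and rho was 0.28. At 100 to under 500 CPM in the lowest library, the median was -0.062 for 124 short and 0.054 for 709 long genes, and rho was 0.20 over 2091 genes. There the library medians of the short genes were -0.037 and -0.024 in MEK1ca, against -0.013 and 0.080 in pCIG. Those of the long genes were 0.052 and -0.00055 in MEK1ca, against -0.015 and -0.040 in pCIG. The contrast was thus widest between MEK1ca replicate 1 and pCIG replicate 2. Over all genes tested the medians were -0.050 and 0.041, and rho was 0.081.

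**Figure D5:**
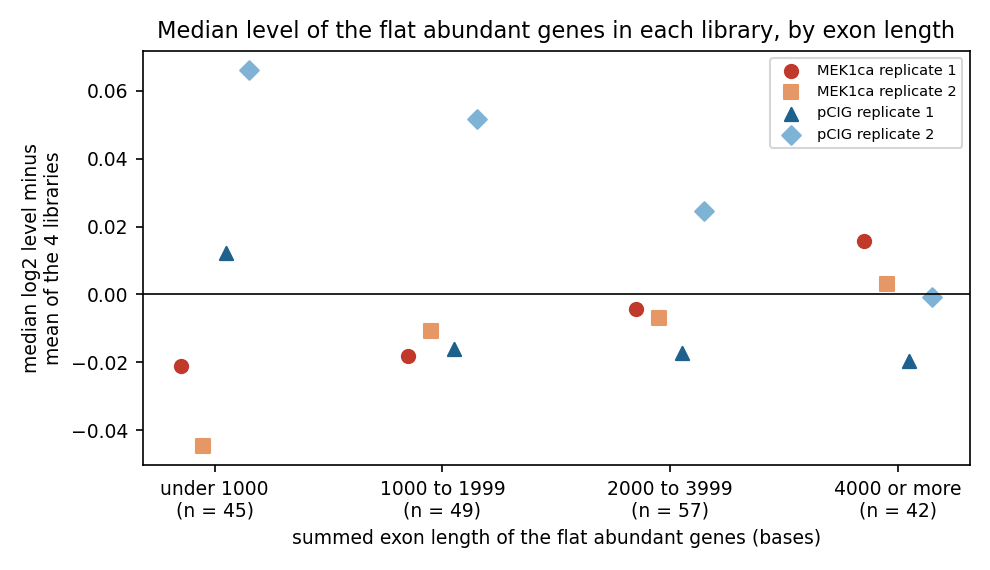
Median log2 level of the flat abundant genes in each library, relative to the mean of the 4 libraries, in 4 classes of summed exon length (n is the number of genes). Among the 45 shortest genes both MEK1ca libraries lie at or under -0.021 and pCIG replicate 2 is highest at 0.066, and among the 42 longest the libraries draw together.

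In structure these genes were compact rather than simple. They had 3 to 55 exons, with a median of 10, and 0 of them had 1 or 2 exons, against 10.9% of all genes tested and 2 of the 49 other abundant genes. Exons here and above are the exon entries listed for each gene, and entries that may repeat or overlap were not merged. Their median span was 9160 bases, against 7011 bases for the other abundant genes and 13471 bases for all genes tested. Spans under 10000 bases were found for 102 genes, or 52.8%, against 63.3% of the other abundant genes and 41.7% of all genes tested. The shortest by exon length, ENSGALG00000011472 on chromosome 7 at 22831998 to 22834140, has 3 exons of 370 bases in all. It had 610 and 634 CPM in MEK1ca, against 641 and 637 CPM in pCIG. The longest, ENSGALG00000002747 on chromosome 18 at 4886002 to 4935063, has 55 exons of 11861 bases in all. Its CPM was 870 and 897 in MEK1ca, against 893 and 836 in pCIG. The widest span was that of ENSGALG00000004304 on chromosome 10, with 155633 bases and 22 exons.

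Many of them held another small gene within their bounds. In vertebrates, introns of protein-coding genes are a usual place for genes of small nucleolar RNAs, which guide the chemical modification of other RNAs and are made from the spliced-out intron. The table gives no gene types, so annotated genes of 1 exon and under 300 bases were counted as small. Of the 193 genes, 39 (20.2%) contained at least 1 such gene on their own strand, and 0 contained one on the opposite strand. The share was 12.2% of the other abundant genes (6 of 49), 5.31% of the 2091 genes at 100 to under 500 CPM and 3.65% of all genes tested, where 104 genes contained one on the opposite strand. In total 74 small genes of 36 to 247 bases lay inside, with a median CPM of 0.785 and at most 12.8, so they added little to any count. ENSGALG00000005054, with 15 exons on chromosome 4 at 2094842 to 2104015, contained 6, and ENSGALG00000007711, with 10 exons on chromosome 10 at 18000215 to 18005535, contained 4. Its level was 2221 and 2150 CPM in MEK1ca, against 2243 and 2333 CPM in pCIG.

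The 39 genes were shorter than the rest, with a median exon length of 1309 against 2378 bases and a median span of 5320 against 10861 bases. Both MEK1ca libraries were below for 23 of the 39 and above for 6, against 83 and 30 of the other 154, and against 32.7 and 26.9% of all genes tested. The median log2 fold change was -0.049, against -0.037 for the 154, and the difference was not tested. Including these, 51 of the 193 overlapped any other annotated gene, 11 of them one on the opposite strand. Overlap was taken on spans, not on exons, and whether strand was used in counting is unknown. Whether the partner's reads were counted for any of those 11 therefore cannot be told.

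The genes were spread over 28 chromosomes. Chromosome 1 held 28, chromosome 3 held 18, chromosome 2 held 17 and chromosome 4 held 11, and 95 of the 193 were on the plus strand. Per 100 genes tested, the number ran from 0.598 on chromosome 5 to 3.40 on chromosome 27, with 3.14 on chromosome 23 and 3.01 on chromosome 13, around 1.48 over the genome. Among the tested genes, 3 pairs of flat abundant genes were next to each other, and an expected number was not computed. In 1 pair, on chromosome 2, ENSGALG00000011036 (minus strand, 32317345 to 32327887) and ENSGALG00000011038 (plus strand, 32327994 to 32341119) begin 107 bases apart and run in opposite directions. ENSGALG00000011036 had 1083 and 1223 CPM in MEK1ca, against 1186 and 1227 CPM in pCIG, with overlapping groups. ENSGALG00000011038 had 641 and 648 CPM in MEK1ca, against 675 and 691 CPM in pCIG, so both MEK1ca libraries were lower.

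The Z chromosome held 5 of the genes and W held 0. On Z, both MEK1ca libraries were below both pCIG libraries for 4 and above for 1, where 106 and 36 of the 193 genes and 32.7 and 26.9% of all genes tested were below and above. EdgeR called 0 of the 5, against 13.9% of all genes tested, and with 5 genes nothing is read from these counts. ENSGALG00000001986, the exception, at 8399862 to 8421056, had 691 and 719 CPM in MEK1ca, against 635 and 643 CPM in pCIG. Summed CPM of the 16 W genes, which only female birds carry, were 123 and 143 in MEK1ca, against 86.2 and 106 in pCIG, and the part of embryo sex in the Z values was not tested.

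The neighbours of the flat abundant genes were called about as often as genes in general. The nearest tested gene on either side, which the rule did not use, was called for 45 of 379 such neighbours, 28 higher and 17 lower. That share of 11.9% was near the 13.9% of all genes tested, and it was 17.0% (16 of 94) for neighbours of the other abundant genes, a difference that was not tested. At least 1 called neighbour was found for 42 of the 193 genes. Without pCIG replicate 1, pCIG replicate 2 and MEK1ca replicate 1, the neighbours called numbered 15, 13 and 27, while the calls over all genes were 768, 640 and 1361. The median log2 fold change of the neighbours was -0.00090, and their median level was 24.1 CPM.

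The sharpest contrast, chosen after its values were seen, lay on chromosome 9. A gene on the plus strand at 14744529 to 14748605 ends 1799 bases from ENSGALG00000007705, which is on the minus strand. It reached 60.1 and 49.7 CPM in MEK1ca, against 2.10 and 1.69 CPM in pCIG, a log2 difference of 4.88 (SE 0.17, edgeR adjusted p = 3.93e-07). ENSGALG00000007705 itself differed by 0.15 on the log2 scale, with an SE of 0.05. On chromosome 4, ENSGALG00000009913 at 30063268 to 30084414 was among the flattest genes, with 873 and 859 CPM in MEK1ca, against 855 and 877 CPM in pCIG. The next tested gene, 210261 bases away at 30294675 to 30371237, had 15.1 and 15.4 CPM in MEK1ca, against 41.5 and 41.7 CPM in pCIG, a log2 difference of -1.43 (SE 0.11, edgeR adjusted p = 4.41e-05).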

How the data were processed

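Counts per gene, deposited by the authors for 4 libraries, were used as they stand, with gene coordinates and summed exon length. Per the labels, poly-A RNA was read in pairs after linear amplification of cDNA. Subread and featureCounts, DESeq, and the build galGal4 are listed in the submitters' processing notes, without versions. The strand setting is not stated there. The authors' own comparison table holds fold changes and p-values and was not used. The identifiers carry no gene names, so the planned gene lists and marker genes were not run. The genes, lists and tests were chosen with earlier results of these data known, and the length classes, small genes inside others and W counts were added after the data were examined.

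CPM used the column total. For the test across all genes edgeR 4.0.16 was run under R 4.3.3 (filterByExpr, TMM, glmQLFit and glmQLFTest, robust, group as the only term), two-sided, with Benjamini-Hochberg adjustment at 0.05. Standard errors came from the F statistic. The fit was tested on simulated data with 200 genes changed by folds well above 1.2. Changes smaller than those, near 1.2-fold or below it, were not covered. Alternatives used DESeq2 1.42.0, limma 3.58.1, other scalings and filters, a replicate term, halved counts of MEK1ca replicate 2 and leaving out each library. Relative log2 levels used TMM-scaled CPM plus 0.5. Single genes were named by rank of CPM, RPKM, ratio, length and closeness to the limits. At most 2 identifiers are printed for called genes of each direction, and others are given by position. Replicates differed by a chi-square per gene of 31.1 in MEK1ca and 25.3 in pCIG and were not merged, which does not tell separate embryo pools from separate preparations. The p-values measure the spread between these libraries, which may be partly technical. Intervals on counts cover counting error only.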

Additional observations from a re-analysis of the deposited data

How the results depend on the processing

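The number of flat abundant genes, 193, was 191 on TMM- or RLE-adjusted sizes (190 shared), 220 at a ratio of 1.3, 207 with a floor of 250 RPKM (137 shared) and 194 with chromosome 16 and long genes kept. It was 541 at 250 CPM, 60 at 1000 CPM and 92 at a ratio of 1.1, all by construction. The mean share of counts, 21.04%, was 20.7% on TMM or RLE sizes, 33.4% at 250 CPM, 11.4% at 1000 CPM, 10.55% at a ratio of 1.1 and 23.7% at 1.3. Groups did not overlap for 142 genes, and for 340, 41 and 63 at 250 CPM, 1000 CPM and a ratio of 1.1. These limits do not alter the share over all genes tested, which was 59.5%. With the rule applied without 1 library there were 199 to 215 genes, holding 21.7 to 22.9% of counts, of which 174 to 182 did not overlap. With 1 library in a group the window is wider and overlap is less likely for every gene by construction. Shares over all genes without 1 library were not computed, and nothing is read from any of these counts.

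Flat genes called numbered 7 with library totals (2 higher, 5 lower) and 9 with the replicate block (7 higher, 2 lower), and 0 to 3 without 1 library. Over all genes the block called 2873, against 1814, and leaving out a library 640 to 2054. With library totals 1722 of all 13024 genes tested were called, 938 higher and 784 lower, against 1065 higher and 749 lower in the main fit. The calls over all genes thus also shifted towards lower under that scaling, but stayed mostly higher. Those of the flat genes, 3 higher and 1 lower in the main fit, became mostly lower. The rule had chosen the flat genes on the same values, so nothing is read from that. The replicate block called 1582 higher and 1291 lower over all genes. The replicate block gave a median log2 fold change of -0.042, a short minus long difference of -0.088 and 67 called neighbours. Replicate differences correlated at 0.20 between groups over all genes tested and 0.11 over the flat genes, and the labels give the numbers no shared origin, so they were not taken to pair the samples. Without 1 library the median was -0.077 to -0.0095, the short minus long difference -0.107 to -0.097 and called neighbours 13 to 50. A library left alone in its group took its spread from the other group. The cause of these differences was not tested. TMM factors taken from the genes outside the set, an alternative chosen after seeing the data, gave a median of -0.042 and 4 calls.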

Other observations

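Counts of MEK1ca replicate 2 were mostly even numbers, and the flat abundant genes stand at the far end of that pattern. Among genes with 1 to 99 counts in that library 98.5% of counts were even (95% exact binomial interval 98.0 to 98.9%). The share was 92.0% at 100 to under 1000 counts, 82.2% at 1000 to under 10000, 70.7% at 10000 to under 30000 and 64.5% above that. Of the 193 flat abundant genes 116 had an even count there, or 60.1% (52.8 to 67.1%), against 96 in MEK1ca replicate 1 and 100 and 104 in the pCIG libraries. With the counts of MEK1ca replicate 2 halved, edgeR called 1821 of 12937 genes tested, against 1814 of 13024 without halving. It called 4 of the 193 flat abundant genes and 46 of 375 neighbours, and the median log2 fold change of the 193 was -0.042. Halving rescales that library and changes which genes pass the filter, and whether the even counts bear on the comparisons in another way was not tested.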
